A study of Mus musculus with 38 samples.

Results

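The transcriptomes of 2 murine high-grade serous ovarian cancer (HGSOC) cell lines, HGS2 and 60577, were compared in monoculture, where no host cell contributes RNA. The comparison used 4 of the 38 RNA-seq libraries of the series, 2 of HGS2 and 2 of 60577, which were chosen by their labels. The other 34 libraries are omental tumors grown from these lines, with or without carboplatin and paclitaxel. All 13 control tumors, those without the drugs, were used at the end. The study's methods describe controls given vehicle, and these tumors are called untreated below. The labels give 60577 the genotype FVB and HGS2 the genotype C57BL/6J. No engineered allele of either line is given in the sources used here, so line and mouse strain cannot be told apart. Both lines were grown untreated in the same medium, DMEM:F12 with fetal bovine serum, insulin, transferrin, selenium, hydrocortisone and murine EGF. Each line is a single line, and nothing says whether its 2 libraries came from separate cultures, so p-values measure only the spread between these libraries.

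HGSOC is thought to arise from the epithelium of the fallopian tube or the ovarian surface, and its cells usually carry keratins and the cell-cell junctions of an epithelium. Malignant epithelial cells can lose junctions and keratins and express mesenchymal genes, among them collagens and other matrix proteins. A monoculture shows which matrix, adhesion and signaling genes the malignant cells express without fibroblasts, mesothelium or leukocytes around them.

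The libraries held between 31633099 and 42461989 counts, and a count of 3, used as the floor of detection, corresponds to between 0.0674 and 0.101 CPM (counts per 1000000 counts, scaled by TMM). Of 55487 genes, 13742 reached 1 CPM in at least 25% of the libraries and were tested with edgeR's quasi-likelihood test. A gene was called at a Benjamini-Hochberg adjusted p below 0.05 together with a log2 fold change beyond 1 in either direction, and each fold change is given as HGS2 minus 60577 with its standard error. In all, 2189 genes were called, which is 15.9% of those tested. Of these, 1037 (7.55%) were higher in HGS2 and 1152 (8.38%) were higher in 60577. The median log2 fold change over all tested genes was -0.03. For 66.6% of tested genes the 2 lines did not overlap, so with 2 libraries a side non-overlap alone says little.

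The replicates of HGS2 differed more than those of 60577. Log2 CPM correlated across genes at r = 0.962 between the HGS2 libraries and 0.982 between the 60577 libraries, against 0.81 to 0.864 between lines. Over all tested genes, 2015 (14.7%) were more than 2-fold apart between the HGS2 replicates and 713 (5.19%) between the 60577 replicates. HGS2 replicate 1 stood apart in matrix, interferon and cell cycle genes, with a summed level of 36 interferon-stimulated genes of 2950 CPM against 693 CPM in HGS2 replicate 2, and a summed level of 30 replication and mitosis genes of 1840 CPM against 4731 CPM. In 60577 those sums were 1159 and 1135 CPM, and 5531 and 5017 CPM. The number of called genes was 783 without 60577 replicate 1, 503 without 60577 replicate 2, 2539 without HGS2 replicate 1 and 3521 without HGS2 replicate 2. A fit of 3 libraries takes its spread from the 1 pair that is left. Under every one of these 4 omissions, 469 of the 2189 genes kept their call, 170 higher in HGS2 and 299 higher in 60577.

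Lists of genes for identity, adhesion, matrix and signaling were drawn up with earlier results of these data known, and their counts are descriptions. They held 964 genes, of which 733 were tested and 228 called, 140 higher in HGS2 and 88 higher in 60577. A count of members is read beside the shares called over all genes, 7.55% in one direction and 8.38% in the other.

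**Figure D1:**
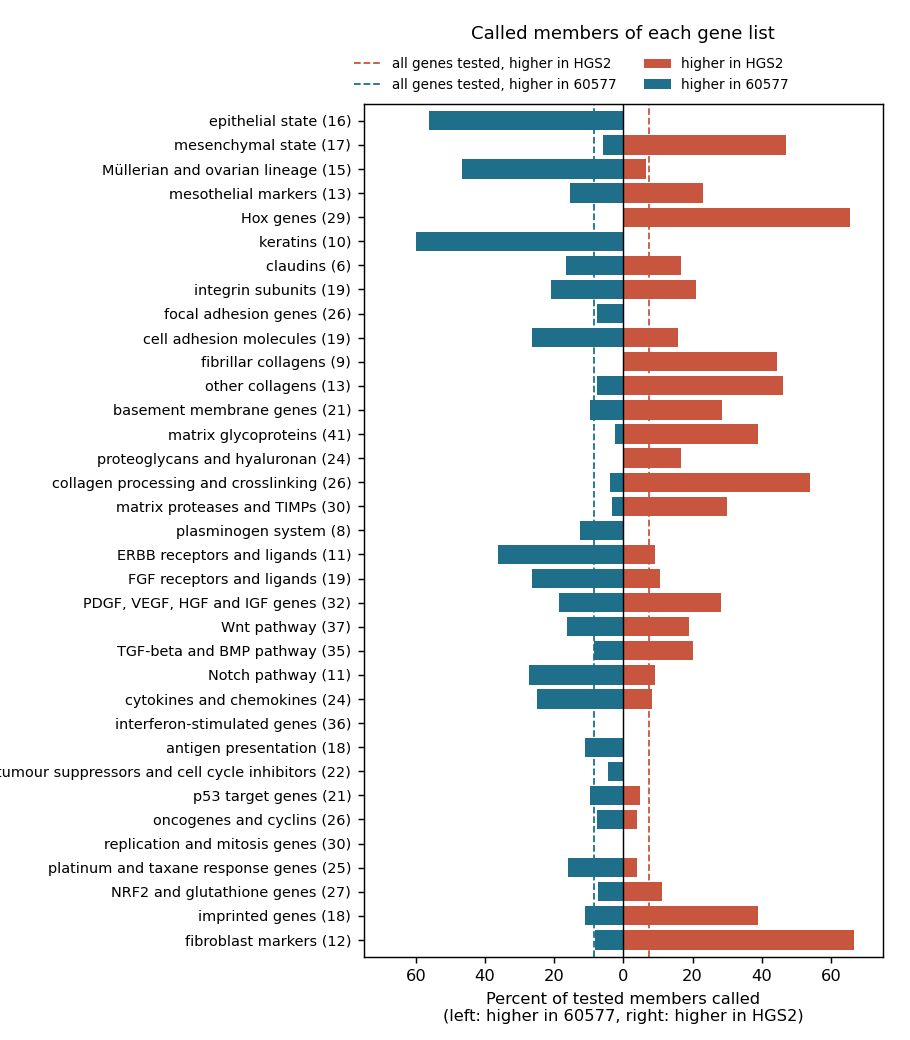
Percent of the tested members of each gene list that were called, with bars to the right for genes higher in HGS2 and to the left for genes higher in 60577, for lists with at least 6 tested members (number tested in parentheses). Dashed lines mark the shares over all genes tested, 7.55% and 8.38%. Hox genes, collagens, collagen processing genes and fibroblast markers extend to the right, and epithelial genes and keratins to the left.

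Most of the tested epithelial genes were lower in HGS2. Of 26 epithelial genes, 16 were tested, 9 were called higher in 60577 and the other 7 were not called, with a median log2 fold change of -2.03. Krt8, a keratin of simple epithelia, was at 1205 and 1140.00 CPM in 60577 and 76.3 and 158 CPM in HGS2 (log2 fold change -3.32 ± 0.42, adjusted p = 0.0089). Its partner Krt18 was at 1078 and 1252 CPM in 60577 and 104 and 185 CPM in HGS2 (log2 fold change -3.01 ± 0.36, adjusted p = 0.00823). Both HGS2 libraries lay far below both 60577 libraries for this keratin pair. Dsp, which encodes desmoplakin and links desmosomes to keratin filaments, was at 338 and 357 CPM in 60577 and 21.9 and 32 CPM in HGS2 (log2 fold change -3.69 ± 0.28, adjusted p = 0.00313). Cdh1 (E-cadherin), the main cadherin of epithelial junctions, was at 40.2 and 52.5 CPM in 60577 and 9.74 and 12.5 CPM in HGS2 (log2 fold change -2.06 ± 0.25, adjusted p = 0.00822). Epcam, an epithelial adhesion molecule, was low in both lines, at 3.04 and 4.49 CPM in 60577 and 0 and 0.162 CPM in HGS2 (log2 fold change -5.38 ± 0.96, adjusted p = 0.0209). Marveld2 (tricellulin), Ehf, Krt7 and Pkp2 were also higher in 60577. Not all epithelial genes differed in this way: Krt19 was at 1491 and 1576 CPM in 60577 and 439.6 and 958 CPM in HGS2 and Jup (plakoglobin) at 279.7 and 343 CPM in 60577 and 212 and 259 CPM in HGS2, and neither was called. Esrp2, an epithelial splicing factor, was at 27.1 and 24.4 CPM in 60577 and 25.7 and 25 CPM in HGS2. Cdh3 (P-cadherin) was at 70.2 and 9.46 CPM in 60577 and 407 and 292 CPM in HGS2 and was not called (adjusted p = 0.0699), but it was called without 60577 replicate 1 (log2 fold change 5.20) or HGS2 replicate 2 (3.40). The 9 genes higher in 60577 became 5 without 60577 replicate 1, 3 without 60577 replicate 2, 10 without HGS2 replicate 1 and 10 without HGS2 replicate 2. Dsp, Krt8 and Krt18 kept their calls without any one library.

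The promoters of Krt8, Krt18 and Epcam are shown because these genes differed together and each holds the E-box CACCTG or its reverse complement CAGGTG, the letters bound by the SNAI and ZEB repressors of epithelial genes. The 250 bases before the start of each gene are printed 5′ to 3′ on the gene's strand (RefSeq, GRCm38.p6), with the E-box in capitals. They lie at chr17:87635729-87635978 (plus strand), chr15:102004343-102004592 (minus strand) and chr15:102027966-102028215 (plus strand).
Epcam: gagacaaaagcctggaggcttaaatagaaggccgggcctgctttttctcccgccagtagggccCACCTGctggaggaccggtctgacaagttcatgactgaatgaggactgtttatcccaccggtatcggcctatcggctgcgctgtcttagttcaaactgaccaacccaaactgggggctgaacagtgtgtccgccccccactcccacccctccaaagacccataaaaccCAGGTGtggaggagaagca
Krt8: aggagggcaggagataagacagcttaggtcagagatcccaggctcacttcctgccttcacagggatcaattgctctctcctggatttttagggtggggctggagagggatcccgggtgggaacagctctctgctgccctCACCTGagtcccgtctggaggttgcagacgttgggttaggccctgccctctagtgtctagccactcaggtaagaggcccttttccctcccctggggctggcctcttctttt
Krt18: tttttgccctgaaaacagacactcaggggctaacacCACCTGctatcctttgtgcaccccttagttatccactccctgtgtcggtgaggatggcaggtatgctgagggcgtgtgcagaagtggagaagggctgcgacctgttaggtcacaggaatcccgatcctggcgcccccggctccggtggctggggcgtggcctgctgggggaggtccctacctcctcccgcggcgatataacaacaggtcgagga
Krt8 and Krt18 held 1 E-box each, and Epcam held 2. Of the 9 epithelial genes called, 6 had a promoter sequence. They had 7 promoters, of which 4 (57.1%) held the E-box. It stood in 10 of 20 promoters (50%) of the whole epithelial list, which includes these, and in 5657 of 32851 promoters (17.2%) of all genes. A match of letters is a description and not a binding site.

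Mesenchymal genes that were called were higher in HGS2 but for Thy1. Of 20 genes, 17 were tested, 8 were called higher in HGS2, 1 was called higher in 60577 and the other 8 were not called, with a median log2 fold change of 1.16. Prrx1, a homeobox gene of mesenchyme, was at 78.4 and 64 CPM in HGS2 against 9.68 and 7.84 CPM in 60577 (log2 fold change 3.02 ± 0.23, adjusted p = 0.00314). The platelet-derived growth factor receptors were also higher in HGS2. Pdgfra was at 213 and 91.6 CPM in HGS2 against 23.2 and 28.8 CPM in 60577 (log2 fold change 2.55 ± 0.43, adjusted p = 0.0189). Pdgfrb was at 27.5 and 15.8 CPM in HGS2 against 1.98 and 4.52 CPM in 60577 (log2 fold change 2.73 ± 0.51, adjusted p = 0.0232). Among the transcription factors that repress epithelial genes, Snai1 was at 25 and 16 CPM in HGS2 against 8.5 and 4.16 CPM in 60577 (adjusted p = 0.0498), Snai2 at 11.2 and 12.3 CPM in HGS2 against 5.4 and 5.08 CPM in 60577 (adjusted p = 0.0309) and Twist1 at 34.6 and 24.8 CPM in HGS2 against 13.7 and 13 CPM in 60577 (adjusted p = 0.0312). The intermediate filament gene Vim was abundant in both lines, at 1486 and 1284 CPM in 60577 and 1349.5 and 2154 CPM in HGS2, and was not called. Cdh2 (N-cadherin) was at 301 and 293 CPM in 60577 and 459.96 and 569 CPM in HGS2 (adjusted p = 0.0647). Thy1 is a surface glycoprotein of fibroblasts and T cells and was at 60.8 and 58.3 CPM in 60577 and 0.775 and 0.837 CPM in HGS2 (log2 fold change -6.20 ± 0.23, adjusted p = 0.000945). The 8 genes higher in HGS2 became 1 without 60577 replicate 1, 2 without 60577 replicate 2, 6 without HGS2 replicate 1 and 9 without HGS2 replicate 2. Prrx1 and Thy1 kept their calls throughout.

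**Figure D2:**
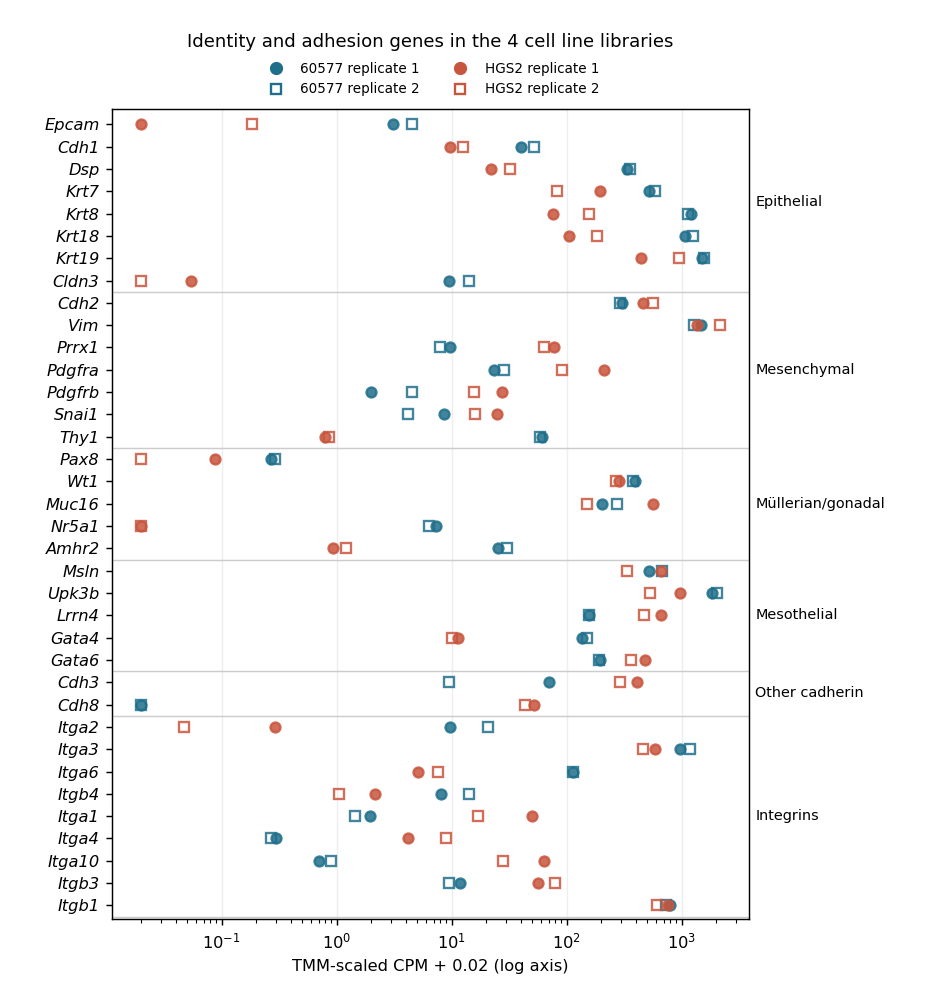
Level of identity and adhesion genes in each of the 4 libraries, as TMM-scaled CPM plus 0.02 on a log axis, with 60577 in blue and HGS2 in red, filled circles for replicate 1 and open squares for replicate 2. Krt8, Krt18, Dsp and Itga6 lie more than 4-fold lower in both HGS2 libraries, and Cdh8 is at 0 in both 60577 libraries.

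The labeled cell type was compared with its defining markers. Pax8, a transcription factor of Müllerian epithelium and a diagnostic marker of HGSOC, was nearly absent, with 9 and 12 counts in 60577 and 2 and 0 counts in HGS2. Sox17, which acts with Pax8, had 0 counts in all 4 libraries, which allows at most between 0.0674 and 0.101 CPM. Wt1, a transcription factor of HGSOC, ovarian surface and mesothelium, was at 393 and 378 CPM in 60577 and 288 and 267 CPM in HGS2, and Muc16, which encodes the CA125 antigen, at 203 and 274 CPM in 60577 and 568 and 151 CPM in HGS2. Neither Wt1 nor Muc16 was called.

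Of 20 genes of Müllerian and ovarian lineage, 15 were tested, 7 were called higher in 60577 and 1 higher in HGS2. The largest difference was in Nr5a1, which encodes steroidogenic factor 1 (SF-1), the regulator of gonadal and adrenal development. Nr5a1 had 267 and 283 counts in 60577 and 0 and 0 counts in HGS2 and was at least 75.1-fold lower in HGS2 (adjusted p = 0.00445). Amhr2, the receptor of anti-Müllerian hormone, was at 25.5 and 30.3 CPM in 60577 and 0.91 and 1.19 CPM in HGS2 (log2 fold change -4.72 ± 0.29, adjusted p = 0.0019). Lhx9, a homeobox gene of the early gonad, was at 21.7 and 9.48 CPM in 60577 and 1.31 and 2.24 CPM in HGS2 (log2 fold change -3.12 ± 0.53, adjusted p = 0.0186). Mecom, a transcription factor gene often amplified in ovarian cancer, was at 22.8 and 25.7 CPM in 60577 and 3.17 and 3.94 CPM in HGS2 (log2 fold change -2.77 ± 0.25, adjusted p = 0.00445). Foxj1, the regulator of motile cilia, was low in both lines, at 1.4 and 2.4 CPM in 60577 and 0.135 and 0.054 CPM in HGS2 (adjusted p = 0.0191). Meis2, a cofactor of Hox proteins, was the gene higher in HGS2, at 83.4 and 89.6 CPM in HGS2 against 22.8 and 21.7 CPM in 60577 (log2 fold change 1.96 ± 0.17, adjusted p = 0.00409). The 7 genes higher in 60577 became 3 without 60577 replicate 1, 4 without 60577 replicate 2, 7 without HGS2 replicate 1 and 7 without HGS2 replicate 2. Amhr2, Mecom and Nr5a1 kept their calls without any one library.

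The promoter of Amhr2 is shown because Nr5a1 encodes the factor SF-1 and both genes were lower in HGS2. It holds 1 SF-1 motif, AAGGTCA in capitals, within the 250 bases before the gene's start at chr15:102445117-102445366 (plus strand, RefSeq, GRCm38.p6). The motif, searched as AAGGTCA and its reverse complement TGACCTT, stood in 1340 of 32851 promoters (4.08%). Its share among the other lineage genes was not counted. The match of letters is a description and not a binding site, and a link between SF-1 and Amhr2 was not tested.
Amhr2: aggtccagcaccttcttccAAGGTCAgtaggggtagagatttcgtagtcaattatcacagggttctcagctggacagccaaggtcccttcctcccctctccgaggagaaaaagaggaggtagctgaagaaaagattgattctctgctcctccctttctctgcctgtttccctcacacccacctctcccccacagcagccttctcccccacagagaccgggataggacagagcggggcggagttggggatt

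Both lines expressed genes of the mesothelium, the lining of the peritoneal cavity. Of 14 mesothelial markers 13 were tested, 3 were called higher in HGS2 and 2 higher in 60577, while 8 were not called. Msln (mesothelin) was at 525 and 681 CPM in 60577 and 656 and 336 CPM in HGS2, and Upk3b at 1853 and 2037 CPM in 60577 and 967 and 528 CPM in HGS2 (adjusted p = 0.0553). Calb2, the marker calretinin, had 0 counts in all 4 libraries. The GATA factors Gata4 and Gata6 differed in opposite directions. Gata4 was at 137 and 151 CPM in 60577 and 11.4 and 10.1 CPM in HGS2 (log2 fold change -3.75 ± 0.20, adjusted p = 0.00138), and Gata6 at 194 and 191 CPM in 60577 and 484 and 366 CPM in HGS2 (log2 fold change 1.14 ± 0.23, adjusted p = 0.0286). The 3 genes higher in HGS2 became 0 without 60577 replicate 1, 0 without 60577 replicate 2, 2 without HGS2 replicate 1 and 4 without HGS2 replicate 2, and Gata4 kept its call throughout. Of 6 steroid receptors, 4 were tested. Esr1 (estrogen receptor alpha) was at 29.4 and 24.1 CPM in HGS2 against 4.5 and 5.3 CPM in 60577 (log2 fold change 2.45 ± 0.25, adjusted p = 0.00536). Esr1 was called higher in HGS2 with or without any one library. Pgr, the progesterone receptor, had a level of 3.2 and 0.918 CPM in HGS2 against 0 and 0.157 CPM in 60577 and was not called (adjusted p = 0.0585).

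Hox genes, the clustered homeobox genes that mark position along the body axis, formed the list with the largest share of called members apart from fibroblast markers. Of 39 Hox genes 29 were tested, 28 had a positive log2 fold change, and 19 were called, all higher in HGS2. The median log2 fold change was 3.36. Called members came from all 4 clusters, with 6 in Hoxa, 4 in Hoxb, 6 in Hoxc and 3 in Hoxd. Hoxa9, which is expressed in the fallopian tube during Müllerian patterning, was at 15.2 and 19.4 CPM in HGS2 against 0.686 and 0.135 CPM in 60577 (log2 fold change 5.43 ± 0.71, adjusted p = 0.0102). Its neighbor Hoxa10, expressed in the uterus, was at 20.4 and 23.8 CPM in HGS2 against 2.33 and 1.24 CPM in 60577 (log2 fold change 3.63 ± 0.39, adjusted p = 0.00607). Hoxa11 had 0 counts in both 60577 libraries and was at least 13.2-fold higher in HGS2. Hoxc6 and Hoxc8 were at 31.8 and 37 CPM in HGS2 against 3.29 and 1.46 CPM in 60577 (log2 fold change 3.86 ± 0.44, adjusted p = 0.0072) and at 15.5 and 17.6 CPM in HGS2 against 1.56 and 0.18 CPM in 60577 (log2 fold change 4.27 ± 0.90, adjusted p = 0.0308). The 60577 replicates differed here as well, with Hoxc8 and Hoxd8 more than 6-fold higher in 60577 replicate 1 than in replicate 2. The 19 calls became 15 without 60577 replicate 1, 6 without 60577 replicate 2, 20 without HGS2 replicate 1 and 22 without HGS2 replicate 2. Hoxa5, Hoxa9, Hoxa10, Hoxc6, Hoxc8 and Hoxd8 kept their calls without any one library.

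**Figure D3:**
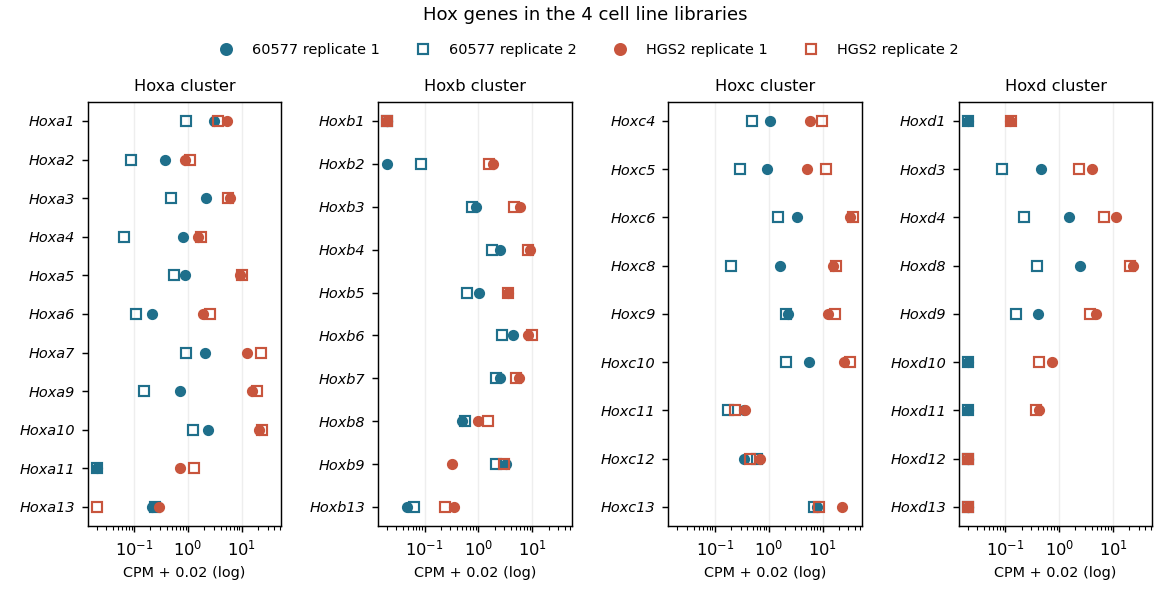
Level of every Hox gene in the 4 libraries by cluster, as TMM-scaled CPM plus 0.02 on a log axis, with 60577 in blue and HGS2 in red, filled circles for replicate 1 and open squares for replicate 2. The HGS2 libraries lie to the right of the 60577 libraries for 28 of the 29 tested genes by fitted fold change.

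Keratins, the intermediate filaments of epithelia, followed the epithelial list. Of 17 keratins 10 were tested, and 6 were called higher in 60577, with a median log2 fold change of -1.67. Krt7 was at 521 and 590.2 CPM in 60577 and 194 and 82.7 CPM in HGS2 (log2 fold change -2.00 ± 0.44, adjusted p = 0.034), and Krt14, a keratin of basal epithelia, at 237 and 254 CPM in 60577 and 92.9 and 100.2 CPM in HGS2 (log2 fold change -1.34 ± 0.19, adjusted p = 0.0122). Krt80 and Krt17 were the other members called besides Krt8 and Krt18. Krt5, the usual partner of Krt14, had 0 counts in all 4 libraries. The 6 became 3 without 60577 replicate 1, 2 without 60577 replicate 2, 6 without HGS2 replicate 1 and 7 without HGS2 replicate 2. Per exon length, the keratins were among the abundant transcripts of 60577, with mean levels of 827 RPKM for Krt19, 811 RPKM for Krt18 and 599 RPKM for Krt8, against 377, 101 and 59.8 RPKM in HGS2.

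Of 20 claudins, the proteins of tight junctions, 6 were tested and 2 were called, in opposite directions. Cldn3 had 343 and 636 counts in 60577 and 1 and 0 counts in HGS2, and its level in 60577 over HGS2 was a ratio of 807 (95% interval 144 to 31890.00), an interval that covers counting error only. Cldn1 was at 93.2 and 46.3 CPM in HGS2 against 3.26 and 5.35 CPM in 60577 (log2 fold change 4.01 ± 0.46, adjusted p = 0.00723). Both claudins kept their calls without any one library.

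Integrins are the receptors that bind cells to matrix, and each is a pair of an alpha and a beta chain. Of 26 integrin subunits 19 were tested, 4 were called higher in HGS2 and 4 higher in 60577. The subunits of the laminin receptors were higher in 60577. Itga6, which pairs with Itgb4 in hemidesmosomes, was at 113 and 113 CPM in 60577 and 5.06 and 7.61 CPM in HGS2 (log2 fold change -4.15 ± 0.27, adjusted p = 0.00208), and Itgb4 at 8.01 and 14.2 CPM in 60577 and 2.16 and 1.03 CPM in HGS2 (log2 fold change -2.81 ± 0.51, adjusted p = 0.0215). Itga3, another laminin receptor chain, was at 962 and 1180.2 CPM in 60577 and 582 and 462 CPM in HGS2 (log2 fold change -1.04 ± 0.26, adjusted p = 0.0493). Collagen receptor chains differed in both directions. Itga2 was at 9.57 and 20.8 CPM in 60577 and 0.27 and 0.027 CPM in HGS2 (log2 fold change -6.74 ± 0.88, adjusted p = 0.00989), whereas Itga1 was at 49.8 and 17.1 CPM in HGS2 against 1.92 and 1.42 CPM in 60577 (log2 fold change 4.33 ± 0.60, adjusted p = 0.0117) and Itga10 at 64.2 and 27.9 CPM in HGS2 against 0.686 and 0.876 CPM in 60577 (log2 fold change 5.87 ± 0.53, adjusted p = 0.00432). Itgb3, the beta chain of the vitronectin receptor, was at 56.8 and 78.9 CPM in HGS2 against 11.7 and 9.46 CPM in 60577 (log2 fold change 2.68 ± 0.26, adjusted p = 0.005), and Itga4 was also higher in HGS2. The common chains were not called, with Itgb1 at 785 and 727 CPM in 60577 and 756 and 616 CPM in HGS2, Itgav at 434 and 435 CPM in 60577 and 575 and 411 CPM in HGS2 and the fibronectin receptor chain Itga5 at 188 and 167 CPM in 60577 and 244 and 178 CPM in HGS2. The count higher in HGS2 became 4 without 60577 replicate 1, 2 without 60577 replicate 2, 4 without HGS2 replicate 1 and 6 without HGS2 replicate 2, and the count higher in 60577 became 3 without 60577 replicate 1, 2 without 60577 replicate 2, 5 without HGS2 replicate 1 and 3 without HGS2 replicate 2. Itga2, Itga6, Itga10 and Itgb3 kept their calls throughout.

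Inside the cell, the proteins of focal adhesions connect integrins to actin. Of 27 such genes 26 were tested and 2 were called, both higher in 60577, which is 7.69% beside 15.9% over all genes. Without HGS2 replicate 2, 4 were called higher in HGS2 and 2 higher in 60577, when 3521 of all genes were called. Tns4, a tensin, was at 32.5 and 58.9 CPM in 60577 and 2.49 and 3.32 CPM in HGS2 (log2 fold change -3.97 ± 0.39, adjusted p = 0.00513). Parvg was low in both lines and lost its call without 60577 replicate 1 or 2.

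Among 30 further adhesion molecules 19 were tested, 3 were called higher in HGS2 and 5 higher in 60577. Cdh8, a classical cadherin best known from the nervous system, had 0 and 0 counts in 60577 and 1549 and 1596 counts in HGS2. It was at least 637-fold higher in HGS2 (adjusted p = 0.00143). Ncam1 was at 417 and 413 CPM in HGS2 against 127 and 50.6 CPM in 60577 (log2 fold change 2.23 ± 0.46, adjusted p = 0.0294). Icam1, which binds leukocyte integrins, was at 69.8 and 95.3 CPM in 60577 and 9.17 and 6.51 CPM in HGS2 (log2 fold change -3.40 ± 0.28, adjusted p = 0.00378). Cadm1, Cadm3, Nectin4 and Ceacam1 were also higher in 60577, and Jam2 was higher in HGS2. The 5 became 3 without 60577 replicate 1, 2 without 60577 replicate 2, 5 without HGS2 replicate 1 and 5 without HGS2 replicate 2, and the 3 became 2 without 60577 replicate 1, 2 without 60577 replicate 2, 3 without HGS2 replicate 1 and 4 without HGS2 replicate 2. Cadm3, Cdh8 and Icam1 kept their calls without any one library.

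Matrix genes were mostly higher in HGS2, and within HGS2 they were mostly higher in replicate 1. The summed level of the matrix glycoproteins was 35379 CPM in HGS2 replicate 1 and 14900 CPM in HGS2 replicate 2, against 7987 and 6911 CPM in 60577, so the lines did not overlap. Of 11 fibrillar collagens 9 were tested, 4 were called higher in HGS2 and the other 5 were not called, with a median log2 fold change of 2.17. Col1a1 and Col1a2 encode the chains of type I collagen. Col1a1 was at 13409 and 7257 CPM in HGS2 against 789 and 229 CPM in 60577 (log2 fold change 4.34 ± 0.76, adjusted p = 0.0201), and Col1a2 at 11110.00 and 3541 CPM in HGS2 against 325 and 176 CPM in 60577 (log2 fold change 4.87 ± 0.74, adjusted p = 0.0148). Col5a1, whose chain starts type I fibrils, was at 605 and 418 CPM in HGS2 against 94.1 and 24.3 CPM in 60577 (log2 fold change 3.11 ± 0.68, adjusted p = 0.0338). Col3a1 was at 6557 and 3515 CPM in HGS2 against 618 and 46.8 CPM in 60577, and with the 60577 replicates more than 10-fold apart it was not called (log2 fold change 3.92, adjusted p = 0.0806). Col3a1 was called by DESeq2 (adjusted p = 0.0134) and without 60577 replicate 1 (log2 fold change 6.74) or HGS2 replicate 2 (4.35). Col5a2 was at 1674 and 885 CPM in HGS2 against 956 and 670.4 CPM in 60577 and was not called either. Per exon length, Col1a1 had a mean level of 1574 RPKM in HGS2 and 77.5 RPKM in 60577. The 4 calls became 3 without 60577 replicate 1, 0 without 60577 replicate 2, 4 without HGS2 replicate 1 and 6 without HGS2 replicate 2.

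Of 27 other collagens 13 were tested, 6 were called higher in HGS2 and 1 higher in 60577. The chains of type VI collagen, which forms beaded filaments around cells, were all higher in HGS2. Col6a1 was at 4553 and 1993 CPM in HGS2 against 822 and 594 CPM in 60577 (log2 fold change 2.21 ± 0.48, adjusted p = 0.0342), Col6a2 at 3636 and 1600.5 CPM in HGS2 against 497 and 274 CPM in 60577 (log2 fold change 2.76 ± 0.54, adjusted p = 0.0259) and Col6a3 at 81.2 and 22.3 CPM in HGS2 against 0.823 and 2.07 CPM in 60577 (log2 fold change 5.15 ± 0.82, adjusted p = 0.0167). Col12a1, Col15a1 and Col8a2 were the other collagens higher in HGS2. Col14a1, which coats fibrils, was the member higher in 60577, at 52.5 and 44 CPM in 60577 and 13.2 and 6.69 CPM in HGS2 (log2 fold change -2.28 ± 0.37, adjusted p = 0.017). The 6 calls became 1 without 60577 replicate 1, 1 without 60577 replicate 2, 6 without HGS2 replicate 1 and 9 without HGS2 replicate 2, and none of the 7 collagens kept its call under all 4 omissions.

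**Figure D4:**
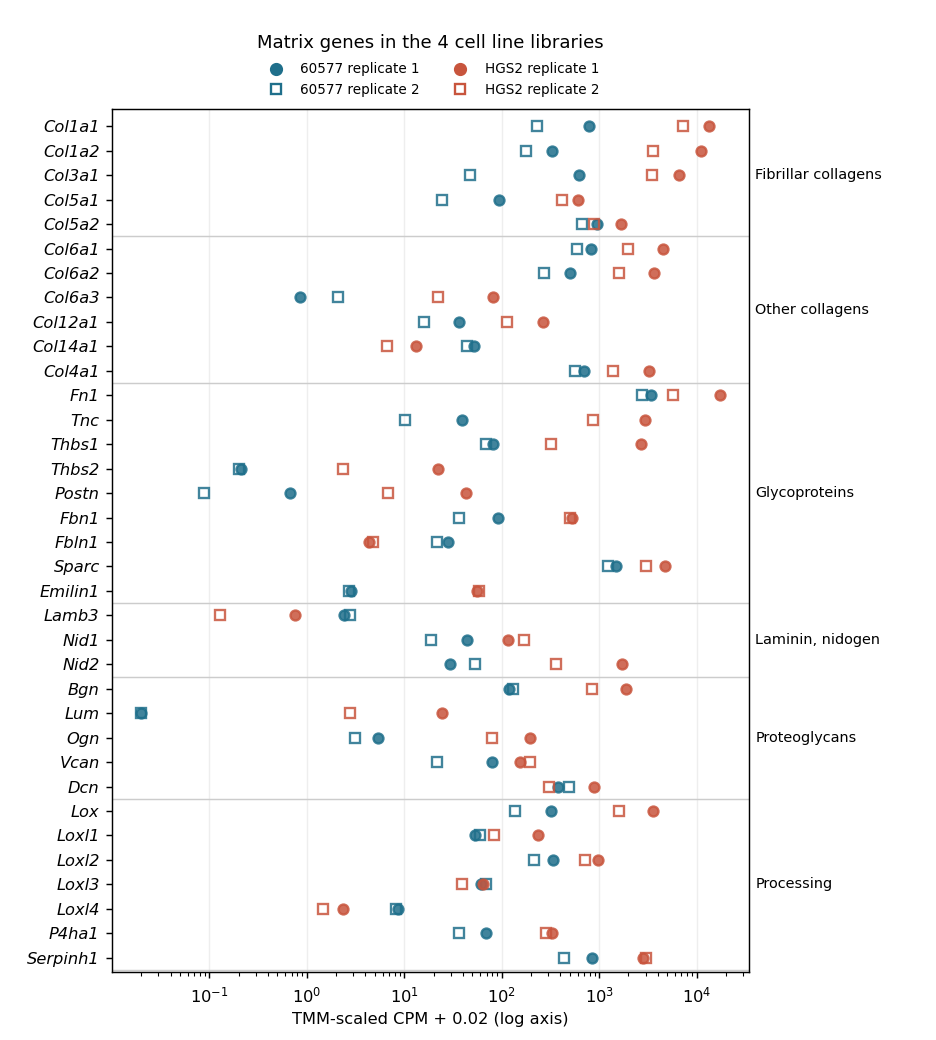
Level of matrix genes in each library, as TMM-scaled CPM plus 0.02 on a log axis, with 60577 in blue and HGS2 in red, filled circles for replicate 1 and open squares for replicate 2. Most HGS2 points lie to the right, with replicate 1 highest for Col1a1, Tnc and Thbs1, while Fbln1, Col14a1 and Loxl4 lie to the left.

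Basement membranes, the sheets of laminin and type IV collagen under epithelia, showed both directions. Of 22 genes 21 were tested, 6 were called higher in HGS2 and 2 higher in 60577. Col4a1 was at 3211 and 1379 CPM in HGS2 against 707 and 567 CPM in 60577 (log2 fold change 1.85 ± 0.46, adjusted p = 0.0481), and Nid2 (nidogen 2), a linker of laminin and type IV collagen, at 1709.8 and 365 CPM in HGS2 against 29.8 and 53.7 CPM in 60577 (log2 fold change 4.63 ± 0.85, adjusted p = 0.0221). Nid1, Npnt, Col4a5 and Col4a6 were also higher in HGS2, and Col4a3 was higher in 60577. The core proteins Lamc1, at 1017 and 783 CPM in 60577 and 993 and 747 CPM in HGS2, and Hspg2 (perlecan), at 2051 and 2217 CPM in 60577 and 2424 and 1481 CPM in HGS2, were not called. The 6 became 1 without 60577 replicate 1, 0 without 60577 replicate 2, 6 without HGS2 replicate 1 and 9 without HGS2 replicate 2, and the 2 became 3 without 60577 replicate 1, 1 without 60577 replicate 2, 6 without HGS2 replicate 1 and 3 without HGS2 replicate 2.

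Of 51 glycoproteins of the matrix 41 were tested, with 16 called higher in HGS2 and 1 higher in 60577, and a median log2 fold change of 1.74. Tnc (tenascin C), a glycoprotein of remodeling tissue, was at 2987 and 864 CPM in HGS2 against 39.6 and 10.1 CPM in 60577 (log2 fold change 6.28 ± 1.02, adjusted p = 0.0171). Thbs1 (thrombospondin 1) was at 2666 and 324 CPM in HGS2 against 80.8 and 69.3 CPM in 60577 (log2 fold change 4.32 ± 1.01, adjusted p = 0.041). Postn (periostin) and Thbs2 were near the floor in 60577, with Postn at 43.3 and 6.72 CPM in HGS2 against 0.658 and 0.0674 CPM in 60577 and Thbs2 at 22.3 and 2.35 CPM in HGS2 against 0.192 and 0.18 CPM in 60577. For these 4 genes HGS2 replicate 1 was more than 3-fold above HGS2 replicate 2. Other members were alike between the HGS2 replicates. Emilin1, of elastic fibers, was at 55.1 and 58.4 CPM in HGS2 against 2.8 and 2.72 CPM in 60577 (log2 fold change 4.36 ± 0.21, adjusted p = 0.00117), Fbn1 (fibrillin 1) at 523 and 497 CPM in HGS2 against 91.8 and 36.4 CPM in 60577 (log2 fold change 2.99 ± 0.48, adjusted p = 0.0167) and Fbln5 at 197 and 168 CPM in HGS2 against 30.8 and 19.4 CPM in 60577 (log2 fold change 2.86 ± 0.29, adjusted p = 0.00536). Sparc was abundant in both lines, at 4781 and 3037 CPM in HGS2 against 1489 and 1244 CPM in 60577 (log2 fold change 1.52 ± 0.35, adjusted p = 0.0394). Fibronectin (Fn1) was at 17335 and 5737 CPM in HGS2 against 3392 and 2733 CPM in 60577 and was not called (log2 fold change 1.91, adjusted p = 0.0824). DESeq2 called Fn1 (adjusted p = 0.00135), and so did edgeR without HGS2 replicate 2 (log2 fold change 2.55). Fbln1 was the glycoprotein higher in 60577, at 27.9 and 21.6 CPM in 60577 and 4.28 and 4.75 CPM in HGS2 (log2 fold change -2.45 ± 0.25, adjusted p = 0.00573). The 16 became 8 without 60577 replicate 1, 4 without 60577 replicate 2, 17 without HGS2 replicate 1 and 28 without HGS2 replicate 2. Emilin1, Fbln1, Fbln5 and Matn2 kept their calls without any one library.

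Of 36 proteoglycan and hyaluronan genes 24 were tested and 4 were called, all higher in HGS2. These were 3 genes of small leucine-rich proteoglycans, which bind collagen fibrils, and the hyaluronan link protein Hapln4. Bgn (biglycan) was at 1880.3 and 854 CPM in HGS2 against 118 and 131 CPM in 60577 (log2 fold change 3.46 ± 0.45, adjusted p = 0.00989), and Ogn (osteoglycin) at 196 and 80.2 CPM in HGS2 against 5.32 and 3.1 CPM in 60577 (log2 fold change 5.04 ± 0.57, adjusted p = 0.00701). Lum (lumican) had 0 and 0 counts in 60577 and 721 and 101 counts in HGS2 and was at least 181-fold higher in HGS2 by the mean of its libraries. That mean rests mostly on HGS2 replicate 1, at 24.3 CPM against 2.73 CPM in HGS2 replicate 2. Versican (Vcan) was at 155 and 195 CPM in HGS2 against 79.7 and 21.7 CPM in 60577 and was not called (log2 fold change 1.79, adjusted p = 0.0978), while DESeq2 called it (adjusted p = 0.00833), as did edgeR without 60577 replicate 1 (log2 fold change 3.01). Dcn (decorin) was at 876 and 304 CPM in HGS2 against 377 and 495 CPM in 60577, so its lines overlapped. The 4 became 2 without 60577 replicate 1, 1 without 60577 replicate 2, 4 without HGS2 replicate 1 and 8 without HGS2 replicate 2, and Ogn kept its call throughout.

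The genes that process and crosslink collagen had 14 of 26 members higher in HGS2 and 1 higher in 60577, with a median log2 fold change of 1.38. Lox, which starts collagen crosslinks by oxidizing lysine, was at 3599 and 1612 CPM in HGS2 against 321 and 138 CPM in 60577 (log2 fold change 3.51 ± 0.62, adjusted p = 0.0203), and Loxl2 at 978 and 712 CPM in HGS2 against 336 and 217 CPM in 60577 (log2 fold change 1.61 ± 0.32, adjusted p = 0.0278). Loxl4 differed in the opposite direction, at 8.53 and 8.13 CPM in 60577 and 2.33 and 1.43 CPM in HGS2 (log2 fold change -2.15 ± 0.36, adjusted p = 0.018). Loxl1 was at 236 and 83.1 CPM in HGS2 against 53.7 and 60.2 CPM in 60577 (adjusted p = 0.0932) and Loxl3 at 63.7 and 39.3 CPM in HGS2 against 61 and 68.3 CPM in 60577 (adjusted p = 0.434), and neither was called. Serpinh1, the collagen chaperone HSP47, was at 2812 and 3028 CPM in HGS2 against 852 and 439.96 CPM in 60577 (log2 fold change 2.18 ± 0.40, adjusted p = 0.0226). The prolyl 4-hydroxylases P4ha1, P4ha2 and P4ha3 and the prolyl 3-hydroxylases P3h1, P3h2 and P3h3 were all higher in HGS2, with P4ha1 at 330.3 and 282 CPM in HGS2 against 69.4 and 36.6 CPM in 60577 (log2 fold change 2.53 ± 0.36, adjusted p = 0.0124). Among enzymes that trim procollagen, Tll1 was at 35.9 and 54.6 CPM in HGS2 against 6.04 and 3.28 CPM in 60577 (log2 fold change 3.28 ± 0.40, adjusted p = 0.00837), and Adamts2 and Bmp1 were also higher in HGS2. The 14 became 3 without 60577 replicate 1, 1 without 60577 replicate 2, 12 without HGS2 replicate 1 and 16 without HGS2 replicate 2, and the 1 higher in 60577, Loxl4, lost its call without 60577 replicate 1 or 2. Tll1 kept its call throughout.

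Of 40 matrix proteases and their TIMP inhibitors 30 were tested, 9 were called higher in HGS2 and 1, Mmp24, higher in 60577. Adamts5, which cleaves aggrecan and versican, was at 276 and 301 CPM in HGS2 against 27.7 and 17.9 CPM in 60577 (log2 fold change 3.66 ± 0.29, adjusted p = 0.0034). Reck, a membrane inhibitor of metalloproteinases, was at 8.9 and 5.45 CPM in HGS2 against 0.521 and 0.427 CPM in 60577 (log2 fold change 3.91 ± 0.44, adjusted p = 0.00692). Mmp3, Mmp15, Mmp17, Mmp19, Adamts1, Adamts6 and Adamts15 were the other genes higher in HGS2. The membrane collagenase Mmp14 was at 531 and 284 CPM in HGS2 against 91 and 20.3 CPM in 60577 (adjusted p = 0.0551) and Timp3 at 1814 and 760.4 CPM in HGS2 against 512 and 335 CPM in 60577 (adjusted p = 0.0762), and neither was called. The 9 became 5 without 60577 replicate 1, 1 without 60577 replicate 2, 9 without HGS2 replicate 1 and 15 without HGS2 replicate 2, the 1 became 0 without 60577 replicate 1, 0 without 60577 replicate 2, 6 without HGS2 replicate 1 and 1 without HGS2 replicate 2, and Adamts5 kept its call. Of 8 tested genes of the plasminogen system only Serpinb8 was called, higher in 60577, and it lost its call without 60577 replicate 2.

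Signaling genes differed in both directions. Some ligands and their receptors differed in opposite directions, namely Egfr and its ligands Tgfa and Btc, the PDGF receptors and Pdgfb, and Kit and Kitl. Not every pair did so, since the ligand Pdgfc was higher in HGS2, as were both PDGF receptors. Tgfa, Pdgfb and Kitl kept their calls without any one library, whereas Egfr, Btc and the PDGF receptors did not. Of 15 ERBB receptors and ligands 11 were tested, 1 was called higher in HGS2 and 4 higher in 60577. Egfr, the receptor of the EGF that both cultures received, was at 788 and 388 CPM in HGS2 against 167 and 124 CPM in 60577 (log2 fold change 2.02 ± 0.40, adjusted p = 0.0272). Its ligands Tgfa and Btc were higher in 60577, with Tgfa at 31 and 50.7 CPM in 60577 and 3.37 and 4.45 CPM in HGS2 (log2 fold change -3.38 ± 0.34, adjusted p = 0.00536) and Btc at 44.4 and 48.4 CPM in 60577 and 5.56 and 13.9 CPM in HGS2 (log2 fold change -2.25 ± 0.45, adjusted p = 0.027). Erbb3, a receptor of neuregulin, was at 22 and 34.3 CPM in 60577 and 7.38 and 7.04 CPM in HGS2 (log2 fold change -1.96 ± 0.29, adjusted p = 0.0139), and Erbb4 was near the floor in HGS2. Erbb2 was at 45.2 and 50.5 CPM in 60577 and 35 and 38 CPM in HGS2 and was not called. The 4 became 2 without 60577 replicate 1, 1 without 60577 replicate 2, 4 without HGS2 replicate 1 and 4 without HGS2 replicate 2, and Egfr lost its call without 60577 replicate 1 or 2, whereas Tgfa kept its call throughout.

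In the FGF family, 19 of 25 genes were tested, 2 were called higher in HGS2 and 5 higher in 60577. Fgfr1 was at 98.3 and 160.5 CPM in 60577 and 46.8 and 30 CPM in HGS2 (log2 fold change -1.75 ± 0.34, adjusted p = 0.0258), and the ligands Fgf5, Fgf13 and Fgf18 were higher in 60577, as was the feedback inhibitor Spry4. The ligands Fgf2, at 106 and 37 CPM in HGS2 against 8.94 and 4.49 CPM in 60577 (log2 fold change 3.41 ± 0.62, adjusted p = 0.0218), and Fgf7 were higher in HGS2. The 5 became 1 without 60577 replicate 1, 1 without 60577 replicate 2, 5 without HGS2 replicate 1 and 4 without HGS2 replicate 2, and the 2 became 2 without 60577 replicate 1, 0 without 60577 replicate 2, 3 without HGS2 replicate 1 and 4 without HGS2 replicate 2.

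Among 33 genes of the PDGF, VEGF, HGF and IGF families 32 were tested, 9 were called higher in HGS2 and 6 higher in 60577. For PDGF, the ligand gene Pdgfb was at 47.8 and 74.3 CPM in 60577 and 1.15 and 1.11 CPM in HGS2 (log2 fold change -5.76 ± 0.33, adjusted p = 0.00164), while both receptors and the ligand Pdgfc were higher in HGS2. For stem cell factor, the ligand Kitl was at 133 and 128 CPM in HGS2 against 18 and 22.7 CPM in 60577 (log2 fold change 2.68 ± 0.20, adjusted p = 0.00321), while its receptor Kit was near the floor in HGS2. The VEGF receptor Flt4 was at 329.5 and 400.1 CPM in 60577 and 41.5 and 48.7 CPM in HGS2 (log2 fold change -3.02 ± 0.23, adjusted p = 0.00331), and Vegfa itself was at 81.3 and 64.8 CPM in 60577 and 71.8 and 79.7 CPM in HGS2 and was not called. Met, the receptor of HGF, was at 657 and 612 CPM in HGS2 against 201 and 158 CPM in 60577 (log2 fold change 1.82 ± 0.24, adjusted p = 0.00998), and Gas6, the ligand of the receptor Axl, at 1903 and 800.1 CPM in HGS2 against 126 and 152 CPM in 60577 (log2 fold change 3.28 ± 0.48, adjusted p = 0.0138). Axl was at 434 and 486 CPM in 60577 and 656 and 448 CPM in HGS2 and was not called. Igf2 was at 871 and 175 CPM in HGS2 against 4.61 and 4.69 CPM in 60577 (log2 fold change 6.81 ± 0.90, adjusted p = 0.0104), whereas Igf1r, which binds it, was at 180.3 and 240.04 CPM in 60577 and 108 and 93.5 CPM in HGS2 (log2 fold change -1.06 ± 0.23, adjusted p = 0.0325), and Igfbp2 was also higher in 60577. The 9 became 2 without 60577 replicate 1, 2 without 60577 replicate 2, 10 without HGS2 replicate 1 and 13 without HGS2 replicate 2, and the 6 became 4 without 60577 replicate 1, 3 without 60577 replicate 2, 7 without HGS2 replicate 1 and 6 without HGS2 replicate 2. Flt4, Igfbp2, Kitl and Pdgfb kept their calls without any one library.

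The Wnt pathway held the largest differences among the signaling lists. Of 54 genes 37 were tested, 7 were called higher in HGS2 and 6 higher in 60577. The neighboring ligand genes Wnt10a and Wnt6 were expressed in 60577 and near the floor in HGS2. Wnt10a was at 132 and 135 CPM in 60577 and 0.135 and 0.054 CPM in HGS2 (log2 fold change -10.48 ± 0.36, adjusted p = 0.000945), and Wnt6 at 57.4 and 65.2 CPM in 60577 and 0.202 and 0.135 CPM in HGS2 (log2 fold change -8.50 ± 0.31, adjusted p = 0.000945). Rnf43, a ligase that removes Wnt receptors, was at 7.38 and 9.57 CPM in 60577 and 0.169 and 0.351 CPM in HGS2 (log2 fold change -4.98 ± 0.48, adjusted p = 0.005). In the other direction, Ror2, a receptor of noncanonical Wnt ligands, had 0 and 0 counts in 60577 and 230 and 206 counts in HGS2 and was at least 88.9-fold higher in HGS2. The secreted Wnt antagonists Sfrp1 and Sfrp2 were higher in HGS2, with Sfrp2 at 51 and 10.3 CPM in HGS2 against 0.576 and 0.741 CPM in 60577 (log2 fold change 5.53 ± 0.88, adjusted p = 0.0168), while Sfrp4 was higher in 60577. Nkd1, a feedback inhibitor, was at 24.9 and 5.88 CPM in HGS2 against 0.137 and 0.0449 CPM in 60577 (log2 fold change 7.40 ± 1.02, adjusted p = 0.0117). Axin2, the usual target gene of canonical Wnt signaling, was at 19.8 and 30.4 CPM in 60577 and 26.3 and 19.9 CPM in HGS2 and was not called. The 7 became 2 without 60577 replicate 1, 1 without 60577 replicate 2, 8 without HGS2 replicate 1 and 9 without HGS2 replicate 2, and the 6 became 4 without 60577 replicate 1, 3 without 60577 replicate 2, 8 without HGS2 replicate 1 and 5 without HGS2 replicate 2. Rnf43, Ror2, Wnt6 and Wnt10a kept their calls without any one library.

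Of 40 TGF-beta and BMP genes 35 were tested, 7 were called higher in HGS2 and 3 higher in 60577. Tgfbr3, a coreceptor, was at 275 and 171 CPM in HGS2 against 28.3 and 32.9 CPM in 60577 (log2 fold change 2.86 ± 0.30, adjusted p = 0.00581). Secreted and membrane antagonists were among those higher in HGS2, with Fst (follistatin) at 17.7 and 12 CPM in HGS2 against 1.34 and 0.651 CPM in 60577 (log2 fold change 3.90 ± 0.47, adjusted p = 0.00805), Bambi at 51.1 and 27.2 CPM in HGS2 against 2.69 and 2.9 CPM in 60577 (log2 fold change 3.81 ± 0.38, adjusted p = 0.00534) and Grem1 near the floor in 60577. Id1, a target gene of BMP signaling, was at 197 and 192 CPM in HGS2 against 90.9 and 88.3 CPM in 60577 (log2 fold change 1.12 ± 0.18, adjusted p = 0.0167). The ligand genes Bmp2 and Inhbb were higher in 60577, and Tgfb1 was at 45 and 45.6 CPM in 60577 and 44 and 27 CPM in HGS2 and was not called. The 7 became 3 without 60577 replicate 1, 3 without 60577 replicate 2, 8 without HGS2 replicate 1 and 12 without HGS2 replicate 2, and the 3 became 1 without 60577 replicate 1, 1 without 60577 replicate 2, 3 without HGS2 replicate 1 and 4 without HGS2 replicate 2. Bambi, Fst and Tgfbr3 kept their calls throughout. In the Notch pathway 11 of 17 genes were tested, 3 were called higher in 60577 and 1 higher in HGS2. The ligand Dll1 was at 12.2 and 9.95 CPM in 60577 and 0.607 and 0.594 CPM in HGS2 (log2 fold change -4.20 ± 0.33, adjusted p = 0.00335), and Jag1 and the target gene Nrarp were also higher in 60577. Notch3 was at 9.64 and 3.56 CPM in HGS2 against 0.219 and 0.27 CPM in 60577 (log2 fold change 4.73 ± 0.66, adjusted p = 0.0119) and lost its call without 60577 replicate 1 or 2. The 3 became 2 without 60577 replicate 1, 1 without 60577 replicate 2, 3 without HGS2 replicate 1 and 4 without HGS2 replicate 2, and Dll1 kept its call.

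Cytokine genes were called in both directions, 2 of 24 tested higher in HGS2 and 6 higher in 60577. Cxcl12, a chemokine that attracts leukocytes through Cxcr4, was at 771 and 389.9 CPM in HGS2 against 72.3 and 19.7 CPM in 60577 (log2 fold change 3.66 ± 0.73, adjusted p = 0.027), and Cxcl14 at 235 and 88.2 CPM in HGS2 against 6.36 and 4.69 CPM in 60577 (log2 fold change 4.87 ± 0.56, adjusted p = 0.0072). Cxcl16 was at 61.8 and 124 CPM in 60577 and 15.9 and 6.07 CPM in HGS2 (log2 fold change -3.09 ± 0.58, adjusted p = 0.0235), and Clcf1, Ccl20, Il34, Tnfsf10 and Ltb were also higher in 60577. Csf1, the growth factor of macrophages, was at 521 and 341 CPM in 60577 and 714 and 481 CPM in HGS2, and Ccl2 at 112 and 129.6 CPM in 60577 and 82.8 and 16.9 CPM in HGS2, and neither was called. The 6 became 2 without 60577 replicate 1, 1 without 60577 replicate 2, 10 without HGS2 replicate 1 and 6 without HGS2 replicate 2, and the 2 became 2 without 60577 replicate 1, 1 without 60577 replicate 2, 2 without HGS2 replicate 1 and 4 without HGS2 replicate 2. Clcf1 and Cxcl14 kept their calls.

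The interferon-stimulated genes moved with 1 library. All 36 were tested and edgeR called 0 of them, with 5 at an unadjusted p below 0.05 and 6 called by DESeq2. The median log2 fold change was 1.01 and 31 were positive, with HGS2 replicate 1 highest in summed level and HGS2 replicate 2 lowest. Ifit1 was at 16.7 and 13.3 CPM in 60577 and 145 and 10.8 CPM in HGS2, and Irf7 at 18.8 and 13.5 CPM in 60577 and 125 and 10.7 CPM in HGS2, so for both genes HGS2 replicate 2 was below 60577. Without HGS2 replicate 2, 27 were called higher in HGS2, and without HGS2 replicate 1, 8 were called higher in 60577. Of 23 antigen presentation genes 18 were tested and 2 were called, both higher in 60577, namely Cd74, the invariant chain of MHC class II, at 3.81 and 5.68 CPM in 60577 and 0.573 and 0.216 CPM in HGS2 (log2 fold change -3.61 ± 0.60, adjusted p = 0.0178), and H2-Q4. Their count became 0 without 60577 replicate 1, 0 without 60577 replicate 2, 8 without HGS2 replicate 1 and 2 without HGS2 replicate 2. The class I genes H2-K1 and H2-D1 were not called. H2-K1 was at 198 and 200.2 CPM in 60577 and 193 and 69.2 CPM in HGS2. H2-D1 was at 331 and 391 CPM in 60577 and 181 and 89.3 CPM in HGS2 (adjusted p = 0.0549). How mapping both lines to the C57BL/6J reference affects the counts of H2-Q4, H2-K1 and H2-D1 was not tested.

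Of 24 tumor suppressors 22 were tested and 1 was called, higher in 60577. That count became 0 without 60577 replicate 1, 0 without 60577 replicate 2, 1 without HGS2 replicate 1 and 7 without HGS2 replicate 2. Trp53 was low in both lines, at 3.18 and 2.76 CPM in 60577 and 1.05 and 1.19 CPM in HGS2 (adjusted p = 0.0626), Brca1 was at 27 and 18.5 CPM in 60577 and 22.7 and 54 CPM in HGS2, Brca2 at 35.5 and 48.9 CPM in 60577 and 13.6 and 25 CPM in HGS2 (adjusted p = 0.0798), and Rb1 at 16 and 24.8 CPM in 60577 and 11.7 and 11 CPM in HGS2. Cdkn2a was expressed in both lines, at 229.6 and 199 CPM in 60577 and 149.8 and 152 CPM in HGS2. Of 21 tested target genes of p53, 1 was higher in HGS2 (Sesn2) and 2 were higher in 60577 (Pmaip1 and Perp). Perp, a desmosome protein as well as a p53 target, was at 81.7 and 86.7 CPM in 60577 and 10.3 and 20.1 CPM in HGS2 (log2 fold change -2.47 ± 0.35, adjusted p = 0.0123), and none of the 3 kept its call under every omission. The 2 higher in 60577 became 1 without 60577 replicate 1, 0 without 60577 replicate 2, 2 without HGS2 replicate 1 and 5 without HGS2 replicate 2. Of 26 tested oncogenes and cyclins, 2 were called higher in 60577, among them Hmga2, at 35.4 and 33.8 CPM in 60577 and 9.03 and 9.02 CPM in HGS2 (log2 fold change -1.94 ± 0.20, adjusted p = 0.00536), and Mycl was higher in HGS2. Hmga2 kept its call under every omission and Mycl did not. The 2 higher in 60577 became 1 without 60577 replicate 1, 1 without 60577 replicate 2, 2 without HGS2 replicate 1 and 5 without HGS2 replicate 2. Myc was at 118 and 144 CPM in 60577 and 81.3 and 70.8 CPM in HGS2 (log2 fold change -0.78, adjusted p = 0.0494), which is below the fold threshold.

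All 30 replication and mitosis genes were tested and edgeR called 0, with 5 at an unadjusted p below 0.05, 0 called by limma-voom and 2 with a positive log2 fold change. Mki67 was at 585 and 451 CPM in 60577 and 234 and 545 CPM in HGS2, and Mcm5 at 192 and 184 CPM in 60577 and 37.7 and 151 CPM in HGS2, so HGS2 replicate 1 was lowest and HGS2 replicate 2 was near 60577. Without HGS2 replicate 2, 26 were called higher in 60577, and without HGS2 replicate 1, 2 were called higher in HGS2.

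Of 30 genes of platinum and taxane response 25 were tested, 1 was called higher in HGS2 and 4 higher in 60577. Tubb4a, a beta tubulin, was at 104 and 87 CPM in 60577 and 0.607 and 0.27 CPM in HGS2 (log2 fold change -7.79 ± 0.41, adjusted p = 0.00138), and Tubb2b was also higher in 60577. The efflux transporter Abcc3 was at 27.2 and 34.6 CPM in 60577 and 5.12 and 6.83 CPM in HGS2 (log2 fold change -2.37 ± 0.27, adjusted p = 0.0071), and Abcb1a, which exports paclitaxel, at 25.5 and 36.1 CPM in 60577 and 16 and 14.6 CPM in HGS2 (log2 fold change -1.01 ± 0.25, adjusted p = 0.0454). Slc31a1, the copper transporter that takes up platinum drugs, was at 95.1 and 93.2 CPM in HGS2 against 47 and 40.4 CPM in 60577 (log2 fold change 1.11 ± 0.18, adjusted p = 0.0167). The 4 became 2 without 60577 replicate 1, 2 without 60577 replicate 2, 4 without HGS2 replicate 1 and 6 without HGS2 replicate 2, and Abcc3 and Tubb4a kept their calls. Slc31a1 lost its call without 60577 replicate 1 or 2. In the list of NRF2 and glutathione genes 27 of 30 were tested, 3 were higher in HGS2 (Gpx8, Gstm2 and Aldh1a2) and 2 higher in 60577. Aldh1a1, an aldehyde dehydrogenase used as a stem cell marker, was at 1756 and 1802 CPM in 60577 and 469 and 432 CPM in HGS2 (log2 fold change -1.98 ± 0.25, adjusted p = 0.00855), and Gsta4 at 161 and 215 CPM in 60577 and 65.1 and 91.1 CPM in HGS2. The 2 became 0 without 60577 replicate 1, 0 without 60577 replicate 2, 3 without HGS2 replicate 1 and 4 without HGS2 replicate 2, the 3 became 2 without 60577 replicate 1, 0 without 60577 replicate 2, 2 without HGS2 replicate 1 and 5 without HGS2 replicate 2, and the NRF2 target Nqo1 was at 7.96 and 7.57 CPM in 60577 and 4.48 and 9.47 CPM in HGS2 and was not called.

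Imprinted genes are expressed from a single parental copy. Of 24 such genes 18 were tested, 7 were called higher in HGS2 and 2 higher in 60577. The neighbors Igf2 and H19 were both higher in HGS2, with H19 at 1736 and 564 CPM in HGS2 against 27.9 and 16.7 CPM in 60577 (log2 fold change 5.69 ± 0.70, adjusted p = 0.00845). Grb10, an adaptor that restrains insulin signaling, was at 1389 and 865 CPM in HGS2 against 203 and 149 CPM in 60577 (log2 fold change 2.68 ± 0.35, adjusted p = 0.00991). Rian and Dlk1, of another imprinted cluster, had 0 counts in both 60577 libraries and were at least 22.8-fold and at least 11.7-fold higher in HGS2. Peg10, at 383 and 220.4 CPM in 60577 and 49.6 and 47.1 CPM in HGS2 (log2 fold change -2.64 ± 0.32, adjusted p = 0.00837), and Mest were higher in 60577. The 7 became 2 without 60577 replicate 1, 0 without 60577 replicate 2, 6 without HGS2 replicate 1 and 8 without HGS2 replicate 2, the 2 became 1 without 60577 replicate 1, 1 without 60577 replicate 2, 2 without HGS2 replicate 1 and 2 without HGS2 replicate 2, and Peg10 kept its call. Xist, expressed from the inactive X chromosome, was at 671 and 874 CPM in 60577 and 917 and 528 CPM in HGS2 and was not called. Nnt, in which C57BL/6J mice carry a deletion of several exons, was at 78.6 and 72.9 CPM in 60577 and 79.5 and 75.4 CPM in HGS2 (log2 fold change 0.03 ± 0.17, adjusted p = 0.909), so its gene level did not separate the strains. A second, overlapping Nnt entry had 239 and 1053 counts in 60577 and 0 and 85 counts in HGS2 (log2 fold change -3.68 ± 1.46, adjusted p = 0.138) and was not called, and since reads of the entries can be shared both are uncertain.

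Markers of other cell types were mostly at the floor. Of 17 immune markers 2 were tested, Csf1r and Cd68, and neither was called. The defining markers Ptprc, Cd3e, Adgre1 and S100a8 had at most 4 counts in any library, and the summed immune level was between 1.11 and 5.01 CPM. Of 10 endothelial markers 4 were tested, and Cdh5 had 0 counts in all 4 libraries, although the VEGF receptor Kdr had between 873 and 1551 counts. The adipocyte markers Adipoq, Plin1 and Lep had at most 7 counts. Fibroblast markers were present. Of 14, 12 were tested, 8 were called higher in HGS2 and Thy1 higher in 60577. All of the 9 but Pi16 and Dpt also stand in the collagen, glycoprotein, proteoglycan or mesenchymal lists, so they are not a separate result, and the 8 became 1 without 60577 replicate 1, 1 without 60577 replicate 2, 7 without HGS2 replicate 1 and 10 without HGS2 replicate 2.

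The largest differences were ranked among called protein coding genes with at least 10 CPM in both libraries of the higher line, 634 higher in HGS2 and 551 higher in 60577. The 10 with the largest fold change in HGS2 included Cdh8, Gm14296, Ptn, Sncaip, Hunk, Gm21887, Cxcl15, Ugt1a7c and Igf2. Ptn (pleiotrophin), a secreted growth factor, was at 111 and 69.3 CPM in HGS2 against 0.0549 and 0.202 CPM in 60577 (log2 fold change 9.36 ± 0.56, adjusted p = 0.00175). Hunk, a kinase related to AMPK, was at 13.9 and 18.3 CPM in HGS2 against 0.0274 and 0.0674 CPM in 60577 (log2 fold change 8.26 ± 0.48, adjusted p = 0.00165), and the chemokine Cxcl15 at 38.5 and 36.1 CPM in HGS2 against 0.302 and 0.202 CPM in 60577 (log2 fold change 7.21 ± 0.32, adjusted p = 0.00109). Each of these 3 genes was near the floor in 60577. Gm14296, a zinc finger gene, had 0 and 0 counts in 60577 and 468 and 634 counts in HGS2 and was at least 219.7-fold higher in HGS2. Reads of Gm14296, Gm21887 and Ugt1a7c can be shared with near-identical copies or overlapping transcripts, so their values are uncertain. Of the 10 genes, only Igf2 lost its call when 1 library was left out.

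The 10 largest in the other direction were Ifi202b, Gm9008, Fgfbp1, Dsg2, Wnt10a, Vsig1, Kcnd2, Syt14, Stra6 and Hmga1b, and all 10 kept their calls without any one library. Dsg2 (desmoglein 2), the desmosomal cadherin that Dsp anchors, was at 154 and 196 CPM in 60577 and 0.101 and 0.054 CPM in HGS2 (log2 fold change -11.12 ± 0.37, adjusted p = 0.000945). Ifi202b, an interferon-inducible gene of the Ifi200 family, had 964 and 1004 counts in 60577 and 0 and 0 counts in HGS2 and was at least 269-fold lower in HGS2. Fgfbp1, a carrier of FGF ligands, had 406 and 531 counts in 60577 and 0 and 0 counts in HGS2 and was at least 127-fold lower in HGS2. Stra6, the retinol uptake receptor, was at 68.6 and 103 CPM in 60577 and 0.236 and 0.135 CPM in HGS2 (log2 fold change -8.86 ± 0.42, adjusted p = 0.00117), and Syt14 (synaptotagmin 14) at 24.8 and 33.6 CPM in 60577 and 0 and 0.108 CPM in HGS2. Vsig1 and Kcnd2 had 2 and 1 counts in the HGS2 libraries together, with ratios of 60577 over HGS2 of 1314 (95% interval 363 to 10852) and 870.02 (95% interval 156 to 34396). Gm9008 had 706 and 644 counts in 60577 and 0 in both HGS2 libraries, and Hmga1b, a copy of Hmga1 without introns, can share reads with its parent gene.

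Some differences followed position in the genome (GRCm38). The median log2 fold change of the tested genes was -0.66 on chromosome 19, where 101 of 110 called genes were higher in 60577 and 16.5% of all 486 tested genes were positive. It was -0.43 on chromosome 15, -0.36 on 6, -0.34 on 1 and -0.29 on 13 (-0.16 without HGS2 replicate 1), and it was 0.49 on chromosome 12, where 73 of 98 called genes were higher in HGS2. The medians of 479 windows of 100 consecutive genes ran from -0.78 to 0.61, with 24 above 0.5 and 35 below -0.5. Windows differed by up to 0.298 between the 60577 replicates and by up to 0.944 between the HGS2 replicates, the latter on chromosome 13, where 2 windows ran from -1.18 to 0.149 and from -1.31 to 0.169 over the 4 pairings of libraries. Chromosome 4 held both signs, with a median of 0.61 in the window between Lurap1 and Thrap3 (chr4:116132406-126202760) and -0.72 in the window between Platr16 and Cdk11b (chr4:145410245-155649938). For those windows each pairing of an HGS2 with a 60577 library gave a median between 0.349 and 0.728 and between -0.85 and -0.601. On chromosome 19 the lowest window, from Mpeg1 to Kif11, gave a median between -0.838 and -0.727 in the 4 pairings. In 127 windows that do not overlap, medians in the untreated tumors and in the cell lines correlated at Pearson r = 0.851 and Spearman rho = 0.785, and 91 had the same sign. Among all single genes tested in both comparisons, 71.6% had the same sign. The window values are a description across windows, which are not independent replicates, and DNA copy number was not measured here.

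**Figure D5:**
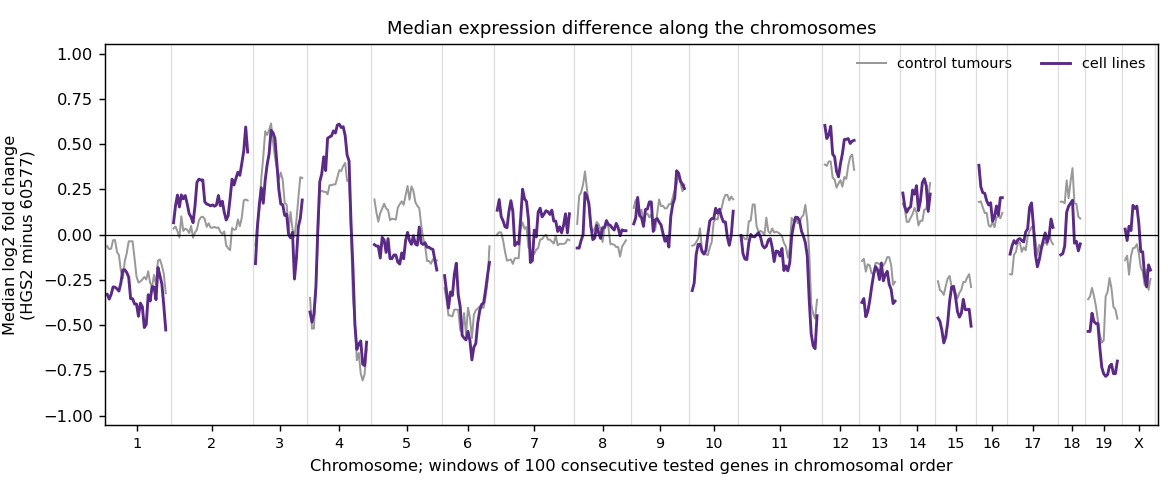
Median log2 fold change (HGS2 minus 60577) of 100 consecutive tested genes, with windows in chromosomal order on the horizontal axis, for the cell lines (purple) and for the same genes in untreated tumors (gray). Both lines lie below 0 along chromosome 19, and chromosome 4 turns from 0.61 to -0.72.

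Genes with at most 3 counts in both libraries of one line and at least 50 in both of the other numbered 44 expressed in HGS2 and 70 expressed in 60577. Only 1 run of at least 3 such neighbors was found, the amylase genes Amy2a4, Amy2a3 and Amy2a2 on chromosome 3. These 3 had identical counts, 2 and 1 in 60577 and 73 and 50 in HGS2, and reads of near-identical copies cannot be told apart, so they are 1 uncertain observation (ratio 49.8, 95% interval 16.6 to 245). A further 7 of the 44 lay between positions 175422300 and 177012787 of chromosome 2 (starts at most 1 Mb apart), a region of zinc finger gene copies that holds Gm14296. These were Gm4724, Gm14288, Gm2026, Gm2004, Zfp973, Gm14296 and Gm14419, and they were picked out after their values were seen.

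Finally, the same contrast was read in 13 untreated control tumors of the 2 earlier collection times, 7 of HGS2 and 6 of 60577, with between 22314660 and 39153730 counts. The study grew HGS2 tumors in C57BL/6J mice and 60577 tumors in FVB mice. Host strain therefore differed between the tumor groups in the same way as between the lines. Time of growth differed as well, because the study began dosing later after cell injection in HGS2 than in 60577. The part of growth time in the tumor contrast was not tested. A tumor holds host cells as well, and in bulk RNA fewer cells of a type and less RNA per cell cannot be told apart. Of 15906 genes tested in tumors 3297 (20.7%) were called. Of 13347 genes tested in both comparisons, 2028 were called in the cell lines and 2249 in the tumors, and 1006 were called in both with the same direction, 500 higher in HGS2 and 506 higher in 60577. That is 49.6% of the cell line calls and 44.7% of the tumor calls, counting the same direction only. Of the genes tested in both, 16.9% were called in tumors in either direction, so this share is not a like background. A further 67 were called in opposite directions. The shared calls in the same direction became 482 without 60577 cell line replicate 1 and 339 without 60577 cell line replicate 2.

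The difference between the 2 contrasts was tested itself in a joint fit, and 1058 of 15719 genes (6.73%) were called. Among 12 genes of the matrix and of HGSOC identity, Col1a1 (tumor log2 fold change 3.24 ± 0.41, adjusted p = 0.000104), Lox (1.93 ± 0.23, adjusted p = 7.92e-05) and Loxl2 (1.37 ± 0.24, adjusted p = 0.000861) were higher in HGS2 tumors, as in the lines. Col1a1 ranged from 10736 to 67153 CPM, with a median of 23187 CPM, in HGS2 tumors and from 2063 to 3887 CPM, with a median of 2906 CPM, in 60577 tumors, without overlap. Krt18 (-3.28 ± 0.67, adjusted p = 0.00215) and Epcam (-2.59 ± 0.86, adjusted p = 0.0279) were lower in HGS2 tumors, again as in the lines, although the Epcam call in tumors was lost without any one of several tumors (adjusted p between 0.0513 and 0.0591). Vcan (2.47 ± 0.33, adjusted p = 0.000154) and Wt1 (-1.52 ± 0.36, adjusted p = 0.00506) were called in tumors and not in the lines, and for neither was the difference between tumors and lines called. Fn1 (0.26 ± 0.22, adjusted p = 0.343), Loxl1 (0.63 ± 0.28, adjusted p = 0.079) and Loxl3 (0.53 ± 0.20, adjusted p = 0.0492, below the fold threshold) were not called in tumors, and Pax8 was too low to be tested. Loxl4 was the gene of the 12 whose contrasts differed. In tumors it ranged from 1.21 to 2.66 CPM in 60577 (median 1.62) and from 1.54 to 19.1 CPM in HGS2 (median 2.7), and its tumor contrast was 1.56 ± 0.53 on the log2 scale (adjusted p = 0.031). That tumor call was lost with limma-voom (1.18, adjusted p = 0.13), with the replicate block (1.37, adjusted p = 0.073), in the TP2 tumors alone (0.745, adjusted p = 0.293) and without any one of several tumors, most of all HGS2 TP1 tumor 1 (0.704, adjusted p = 0.102). The cell line contrast minus the tumor contrast was -3.73 ± 1.04 (adjusted p = 0.0425), and this call was lost with limma-voom (adjusted p = 0.065), with the replicate block (adjusted p = 0.0601), without any one of the 4 cell line libraries (adjusted p between 0.105 and 0.146) or without any one of 8 of the 13 tumors (adjusted p between 0.0533 and 0.0707).

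The 20 genes with the largest differences between the lines were followed into the tumors, which were not used for the ranking. Line and strain go together in the tumors too, so a shared call does not tell them apart. Of the 10 higher in the HGS2 line, 6 were called the same way in tumors, Igf2 was not called, and 3 were too low to be tested, among them Cdh8 and Cxcl15. Of the 10 higher in 60577, 9 were called the same way, and Dsg2 was not called by edgeR but was by DESeq2 (log2 fold change -1.11, adjusted p = 0.0319). The tumor call of Sncaip was lost with the replicate block (adjusted p = 0.108) and without any one of several tumors (adjusted p between 0.0503 and 0.0794). Cdh8 had a median of 0.0631 CPM in HGS2 tumors, which is 0.132% of the mean level of 47.6 CPM in the HGS2 line. Igf2 had a median of 3.42 CPM in HGS2 tumors, which is 0.653% of the mean of 523 CPM in the line, and a median of 7.72 CPM in 60577 tumors. Dsg2 had a median of 146 CPM in HGS2 tumors, from 7.95 to 181 CPM, and of 264 CPM in 60577 tumors, from 249 to 286 CPM, although it was near the floor in the HGS2 line. Gm14296, Ifi202b and Gm9008 separated the models in tumors as in the lines. Gm14296 was at 0 CPM in every 60577 tumor and between 10.9 and 22.2 CPM in HGS2 tumors. Others of the 20 also separated the models' tumors without overlap and in the direction of the lines. Among them were Hunk, Gm21887, Ugt1a7c, Wnt10a, Kcnd2, Syt14, Stra6 and Hmga1b. Reads of Gm14296 can be shared with near-identical copies, and sharing of Gm9008 reads was not tested. For these genes strain and malignant cells cannot be told apart, because host strain differed with the model. The part of host cells in these tumor values was not tested.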

How the data were processed

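RNA of the cell lines was depleted of rRNA and sequenced by the authors. Per the labels' processing notes, reads were trimmed with Trim Galore 0.6.5, mapped with STAR 2.7.0f to mm10/GRCm38 and quantified with RSEM, and the deposited values are the authors' expected counts per gene, neither normalized nor filtered. The reference is of C57BL/6J, the strain of HGS2 and not of 60577, and how this affects counts was not tested. Here the expected counts were rounded, normalized by TMM, and genes were tested by the quasi-likelihood method of edgeR 4.0.16 (two-sided, Benjamini-Hochberg) in R 4.3.3. The filter rule follows the study's methods, which name DESeq2 for the cell lines and give no call threshold for them, and it need not leave the same genes here; the thresholds are those the study used in tumors; DESeq2 1.42.0 and limma 3.58.1 (voom) were alternatives. The standard error is the absolute log2 fold change divided by the square root of F. Positions and types came from GENCODE for 55227 of 55487 genes, and RPKM used the length of all exons. Intervals of ratios are exact 95% intervals for 1 to 3 counts and, like the floor, cover counting error only. A fold given as at least a value compares the mean level of the higher line with the floor of the other line. Lists and members were chosen with earlier results of these data known. Named were the called list members with the largest changes and the best known members, the 10 largest changes per direction, 12 genes for the tumors, run genes and Nnt, of which some are not reported here. Control tumors of the TP1 and TP2 collections were averaged equally, and treated tumors were not used. In counts simulated for this comparison over 13328 genes, 14 of 50 genes changed 2-fold, 46 of 50 changed 4-fold and 50 of 50 changed 8-fold were recovered, with 14 false calls. A 2-fold change lies at the fold threshold itself, which limits its recovery whatever the number of libraries. Genes were drawn independently, without the shift that many genes shared in HGS2 replicate 1, so false calls in the real data can be more frequent. Deviations of same-numbered replicates correlated at -0.153 between the lines, which cannot tell whether same-numbered libraries were handled together. The main fit used no pairing. Figures used matplotlib 3.10.9. The 2 replicates of each line differed by more than sampling noise (chi-square per degree of freedom 61.6 in 60577 and 246 in HGS2).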

Additional observations from a re-analysis of the deposited data

Results flagged for a closer look

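For 9 genes named in the tumor comparison, the difference between the lines was itself different in tumors (cell line contrast minus tumor contrast on the log2 scale, joint edgeR fit). Loxl4, a lysyl oxidase, gave -3.73. Among genes higher in the HGS2 line, the value was 7.16 for Igf2, 7.08 for Sncaip, 5.45 for Hunk, 3.24 for Gm21887 and 2.91 for Ugt1a7c. Among genes higher in the 60577 line it was -9.99 for the desmosomal cadherin Dsg2, -8.04 for the ligand Wnt10a and -4.59 for the retinol receptor Stra6. The calls of Gm21887 and Igf2 were lost without 60577 cell line replicate 1 (2.79 and 7.15), those of Sncaip and Igf2 without 60577 cell line replicate 2 (6.32 and 7.17), and that of Ugt1a7c without either 60577 library (3.02 and 2.80) or HGS2 replicate 1 (2.75). With limma-voom the difference was not called for Loxl4 (adjusted p = 0.065), Sncaip (0.0814), Gm21887 (0.0906), Ugt1a7c (0.125), Dsg2 (0.216) and Stra6 (0.127), and with the replicate block not for Loxl4 (0.0601) and Ugt1a7c (0.0514). These genes other than Loxl4 were ranked by the cell line contrast, so a smaller contrast in tumors was favored by the choice, and host cells add RNA to the tumors only.

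Vsig1, a junction protein of the immunoglobulin family, was at 3.99 CPM in 1 HGS2 TP2 control tumor and at most 0.111 CPM in the other 3 tumors of that group, a gap of 0.908 of the group's range. It was the 1 of 27 tests of a single high or low tumor that passed, and chance alone passes about 1 in 20.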

How the results depend on the processing

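Of the 209 called genes that the text names, 110 kept their call and direction under every alternative that used all libraries, 67 also kept it when each cell line library was left out in turn, and none changed sign. Leaving out 60577 replicate 2 lost 126 of these calls and leaving out 60577 replicate 1 lost 98, against 8 and 9 without HGS2 replicates 1 and 2, glmTreat against a log2 fold change of 1 lost 81 and the joint fit with the control tumors 45. Where a replicate was left out, the lone library of that line was taken to vary like the pair of the other line. The number of genes called in the cell lines (2189) then lay between 503 and 3521, with 186 to 1777 higher in HGS2 and 317 to 1744 higher in 60577, and the list genes called (228) between 61 and 374. Without filter beyond 1 count, 3849 genes were called, 1875 higher in HGS2 and 1974 higher in 60577, with 380 list genes and 1602 shared with the tumors. With glmTreat, 977 genes were called, 417 higher in HGS2 and 560 higher in 60577, with 118 list genes and 558 shared with the tumors. The other scalings, filters and tools gave 2157 (DESeq2 size factors) to 2805 (DESeq2 Wald test) genes.

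For the tumors, the TP2 collection alone gave 2080 called genes against 3297, and leaving out 1 tumor gave 3094 to 3534. In the TP2 collection alone the tumor calls of Loxl4, Wt1, Epcam, Sncaip and Vsig1 were lost. The number shared with the cell lines (1006) was 339 to 1234 and the number with a different contrast in tumors (1058) was 441 to 1312 when 1 library was left out. The difference of Loxl4 was past the threshold in the joint fit but not without the filter (adjusted p = 0.0548), with voom (0.065), with the replicate block (0.0601) or without any 1 of the cell line libraries (0.105 to 0.146).

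The cell line replicates share numbers across the lines, and their deviations correlated at -0.153. Whether the numbers pair the libraries is not known. With the replicate number as a block, 2237 genes were called in the cell lines and 683 had a different contrast in tumors, and with the numbers crossed 2221 were called in the cell lines. Combined with the correction for length and GC the block gave 2276.

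Nnt, which was not called, changed sign with the length and GC offset (-0.0096), with that offset and the block (-0.0081) and when a cell line library was left out (range -0.0295 to 0.1187), Loxl3 when a cell line library was left out (range -0.7091 to 0.0293), and Fn1 in the TP2 tumors alone (-0.0316). Brca2, Cdh3, Col3a1, Fn1, H2-D1, Loxl1, Mmp14, Pgr, Timp3, Trp53, Upk3b and Vcan in the cell lines and Dsg2 in the tumors, not called, were called by DESeq2, and Igf2 was called in the TP2 tumors alone. Of 33 other genes given by level and not called, 13 were called under an alternative and 19 changed sign. The median change of chromosome 13 genes went from -0.29 to -0.16 without HGS2 replicate 1. The cause of these shifts was not tested. Changes of 2-fold, which lie at the fold threshold itself, were mostly missed in simulated counts.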
